A study of Mus musculus with 18 samples.

Results

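The beta cell response to interferon gamma (IFNγ) was measured by RNA-seq in 6 of the 18 libraries of the series, 3 of beta cells from IFNγ-treated islets and 3 of beta cells from control islets, chosen by the cell type and treatment in their labels. The treatment was 5 ng/mL IFNγ for 20 h, given to whole islets of 12-week-old male C57BL/6 mice, and the control islets received no IFNγ. Islets were then dispersed and beta cells were sorted by Epcam, low CD24 and CD71, after cells with CD45, TER119 or CD31 had been gated out. Treatment came before dispersal, so beta cells met IFNγ beside the alpha, delta and other cells of the islet. The other 12 libraries were alpha and delta cells of the same design, with 3 IFNγ and 3 control libraries for each cell type. Libraries 1 to 3 held 7659135, 10171066 and 8756107 expected counts in IFNγ beta cells, against 8638670, 8807651 and 6584262 in control beta cells. Values are given for libraries 1, 2 and 3 in that order as CPM, counts per 1000000 of the scaled library total (TMM), and n = 3 libraries per group throughout. The study describes each library as an independent biological sample, and labels do not say which libraries share animals.

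IFNγ is a cytokine of activated T cells and natural killer cells. Its receptor, made of the Ifngr1 and Ifngr2 chains, activates the kinases JAK1 and JAK2 and through them transcription factors of the STAT family. These bind gamma-activated sites (GAS) in promoters and switch on Irf1 and other transcription factors, which act on a second set of genes through interferon-stimulated response elements (ISRE). Known targets are the class I antigen presentation pathway, the immunoproteasome, large families of inducible GTPases, chemokines and the checkpoint ligand PD-L1. In type 1 diabetes, CD8 T cells that recognise peptides on class I molecules attack beta cells, and IFNγ is one of the cytokines present in the inflamed islet.

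The 4 marker genes fitted the beta cell label in all 6 libraries. Ins1 had 10860, 11670 and 11330 CPM in IFNγ beta cells, against 14920, 10730 and 12160 CPM in control beta cells. Ins2, the other insulin gene of the mouse, had 30180, 29600 and 17510 CPM in IFNγ beta cells, against 29880, 25350 and 29250 CPM in control beta cells. Mafa, a transcription factor of mature beta cells, had 187, 204 and 232 CPM in the IFNγ libraries and 157, 182 and 489 CPM in the controls, and Ucn3, a peptide hormone of mature beta cells, had 181, 234 and 139.6 CPM in the IFNγ libraries and 175, 203 and 240.3 CPM in the controls. Markers of other islet cells were also present. Gcg, the glucagon gene of alpha cells, had 907, 1908 and 1234 CPM in the IFNγ libraries and 1144, 2977 and 154 CPM in the controls, and Sst, the somatostatin gene of delta cells, had 20.6, 22.3 and 34.04 CPM in the IFNγ libraries and 68.8, 55.7 and 0 CPM in the controls. The leukocyte gene Ptprc and the collagen gene Col1a1 had 0 counts in every library, and Pecam1 stayed at or under 0.285 CPM.

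A pair of control libraries stood apart. The 32 acinar genes, which encode digestive enzymes of the exocrine pancreas, summed to 260.3, 36.6 and 278 CPM in IFNγ beta cells, against 2833, 166 and 51.4 CPM in control beta cells, so that control 1 held more acinar RNA than any other library. The 18 immediate early genes, which dissociation of tissue is known to induce, summed to 775, 414 and 956 CPM in IFNγ beta cells, against 537, 633 and 1650 CPM in control beta cells, with control 3 highest. Control 3 is also the beta library whose file name carries a papain tag in place of the CD71 tag of the others, and the labels do not say what differed in its preparation. Ribosomal RNA took 36.7%, 26.6% and 21.4% of the counts in IFNγ libraries, against 30.0%, 18.6% and 7.74% in controls. A fit without the genes of ribosomal RNA and mitochondria called the same 183 genes higher that the fit on all genes called. Fits without control 1, without control 3 and without both, with the file-name date and with the replicate number as a block stand beside many of the results they change. The fit without both leaves control 2 alone. The fit with the date as a block uses 4 beta libraries, 1 IFNγ and 1 control library for each of 2 dates, with control 1 among them. With so few libraries, its adjusted p-values lean on a spread shared over genes. The bars of these sums show the same 3 patterns side by side with the share of counts in the response genes.

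**Figure D1:**
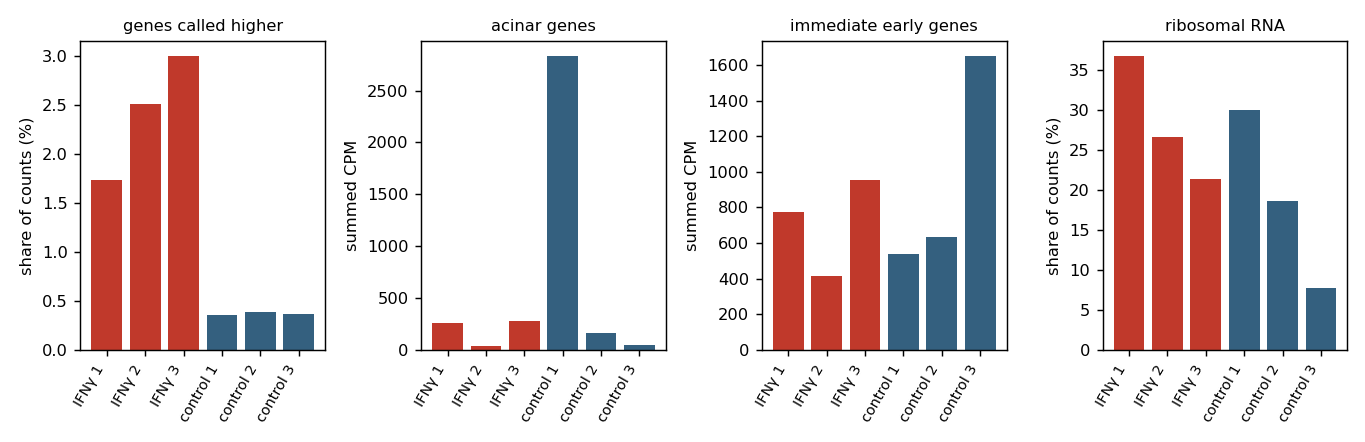
Share of counts in the 183 genes called higher with IFNγ (%), summed level of the acinar and the immediate early gene lists (CPM), and share of ribosomal RNA (%), with 1 bar for each of the 6 beta cell libraries. The response genes took 1.74% to 3.00% of the IFNγ libraries against 0.359% to 0.386% of the controls, while the acinar sum peaks in control 1 at 2833 CPM and the immediate early sum in control 3 at 1650 CPM.

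In the fit on all 18 libraries, nearly all calls were of induction. Of 17338 genes tested, 183 were higher in IFNγ beta cells, 1.06% of all tested, and 1 was lower, 0.00577% of all tested (edgeR quasi-likelihood test, adjusted p under 0.05). At an adjusted p under 0.01, 148 were higher and 0 were lower, while at an unadjusted p under 0.05 edgeR gave 738 genes, 509 of them higher. DESeq2 gave 214 higher and 3 lower at the 0.05 level. With the file-name date as a block, 75 genes were lower, 19 of them in the acinar list. Falls were harder to call than rises: on simulated counts, 22% of falls to a fold of 0.5 were called, against 42% of 2-fold rises. In all 183 genes the 3 IFNγ libraries lay above the 3 controls, an order seen in 6.49% of all genes tested, with 4.45% in the opposite order. The median log2 fold change of the 183 was 3.11, against 0.00 over all genes, and 93 of them had a log2 fold change of 3 or more, 79 of 1 to 3 and 11 of under 1. Without control 1 and control 3 together, 110 genes were higher, all of them among the 183, and in the 4 libraries of the 2 file-name dates that hold both treatments, a fit with the date as a block gave 275 higher, 169 of them among the 183.

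Genes were called in each of 4 classes of control expression. Among the 1426 genes with at most 0.5 CPM in controls, 41 were higher, with a median log2 fold change of 7.20, or 6.43 when genes with 0 control counts are held at the bound that 3 counts over the group allow. Of the 5238 genes at 0.5 to 5 CPM, 48 were higher, with a median of 3.53, and of the 7096 at 5 to 50 CPM, 75 were higher, with a median of 2.11. Among the 3578 genes above 50 CPM, 19 were higher, with a median of 1.33. The size of the log2 change was thus lower where the gene was already on, as the plot of fold change by control level shows, and a gene near 0 needs a large fold change to pass the test. There were 15 of the 183 with 0 counts in all 3 controls and a further 17 with 1 to 3 control counts, and the fold changes of these are bounds or ratios with wide counting intervals.

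**Figure D2:**
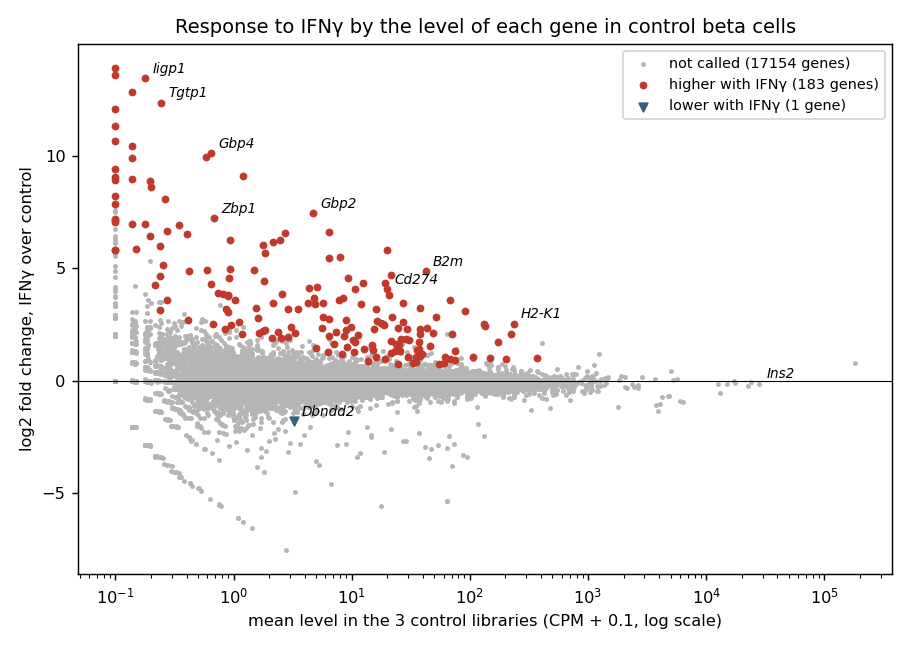
Log2 fold change of IFNγ over control in beta cells (vertical axis) against the mean level in the 3 control libraries (CPM + 0.1, log axis), with 1 point for each of the 17338 genes tested. The 183 genes called higher lie at control levels from 0 to that of the most abundant among them, short of the insulin genes, with fitted values up to 13.92 at the left edge where controls have 0 or almost 0 counts, and Dbndd2 is the 1 gene called lower.

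As a share of the library, the 183 genes took 1.74%, 2.52% and 3.00% of the counts in IFNγ beta cells, against 0.359%, 0.386% and 0.362% in control beta cells. Measured per transcript length, they took 0.770%, 0.952% and 0.985% of TPM in IFNγ libraries, against 0.118%, 0.129% and 0.0958% in controls. The groups did not overlap in either measure, but the 183 were called as higher in these same libraries, so this is not a separate result. By mean TPM, 2 of the 183 stood among the 100 highest genes in IFNγ beta cells, against 0 in control beta cells, and 27 among the 500 highest, against 2. Those 2 were B2m, at rank 84 of all genes with IFNγ against rank 1183 in controls, and H2-K1, at rank 90 against rank 247. Over the 126 genes with at least 1 CPM in controls, the median log2 ratio to the control mean was 2.12, 2.23 and 2.48 in IFNγ libraries 1, 2 and 3.

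The receptor and the kinases did not pass the test. Ifngr1 had 12.4, 14.1 and 10.6 CPM in IFNγ beta cells, against 10.4, 13.6 and 12.9 CPM in control beta cells, and the interval of its log2 fold change ran from -0.47 to 0.48. Ifngr2 had 8.35, 9.96 and 5.25 CPM in the IFNγ libraries and 12.2, 8.55 and 7.91 CPM in the controls, with an interval of -1.04 to 0.47. Jak1 had 259, 222 and 183 CPM in the IFNγ libraries and 234, 239 and 282 CPM in the controls, and Jak2 had 61.8, 71.1 and 64.8 CPM in the IFNγ libraries and 47.1, 49.6 and 58.6 CPM in the controls, with a log2 fold change of 0.35 ± 0.22 (SE) and an interval of -0.10 to 0.80. All 3 IFNγ libraries lay above the controls for Jak2, but the call was not made. Stat2, a transcription factor of the type I interferon complex, had 227, 218 and 231 CPM in IFNγ beta cells, against 49.4, 43.2 and 37.9 CPM in control beta cells, a log2 fold change of 2.37 ± 0.22 (SE), adjusted p = 7.7e-07. In this gene every IFNγ library lay above every control. Stat3, Stat5a, Stat5b and Stat6 had log2 fold changes between -0.06 and 0.17.

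Genes that damp the pathway rose in 2 of 10 cases. Socs1, an inhibitor of JAK kinases, had 8.88, 7.35 and 17.4 CPM in IFNγ beta cells, against 0.997, 0.351 and 1.06 CPM in control beta cells, a log2 fold change of 3.82 ± 0.60 (SE), adjusted p = 0.00076. Usp18, which removes ISG15 from proteins and restrains type I interferon signalling, had 42.99, 34.6 and 52.7 CPM in IFNγ beta cells, against 8.55, 8.90 and 9.28 CPM in control beta cells, a log2 fold change of 2.28 ± 0.34 (SE), adjusted p = 0.00038, and its adjusted p became 0.10 without controls 1 and 3. Socs3, a related inhibitor, had 42.5, 21.1 and 38.2 CPM in the IFNγ libraries and 42.9, 22.4 and 26.6 CPM in the controls, and Ptpn2, a phosphatase that damps JAK-STAT signalling, had 35.2, 35.6 and 33.7 CPM in the IFNγ libraries and 27.4, 29.9 and 38.6 CPM in the controls, with neither called. Without controls 1 and 3, 1 of the 10 was called.

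**Figure D3:**
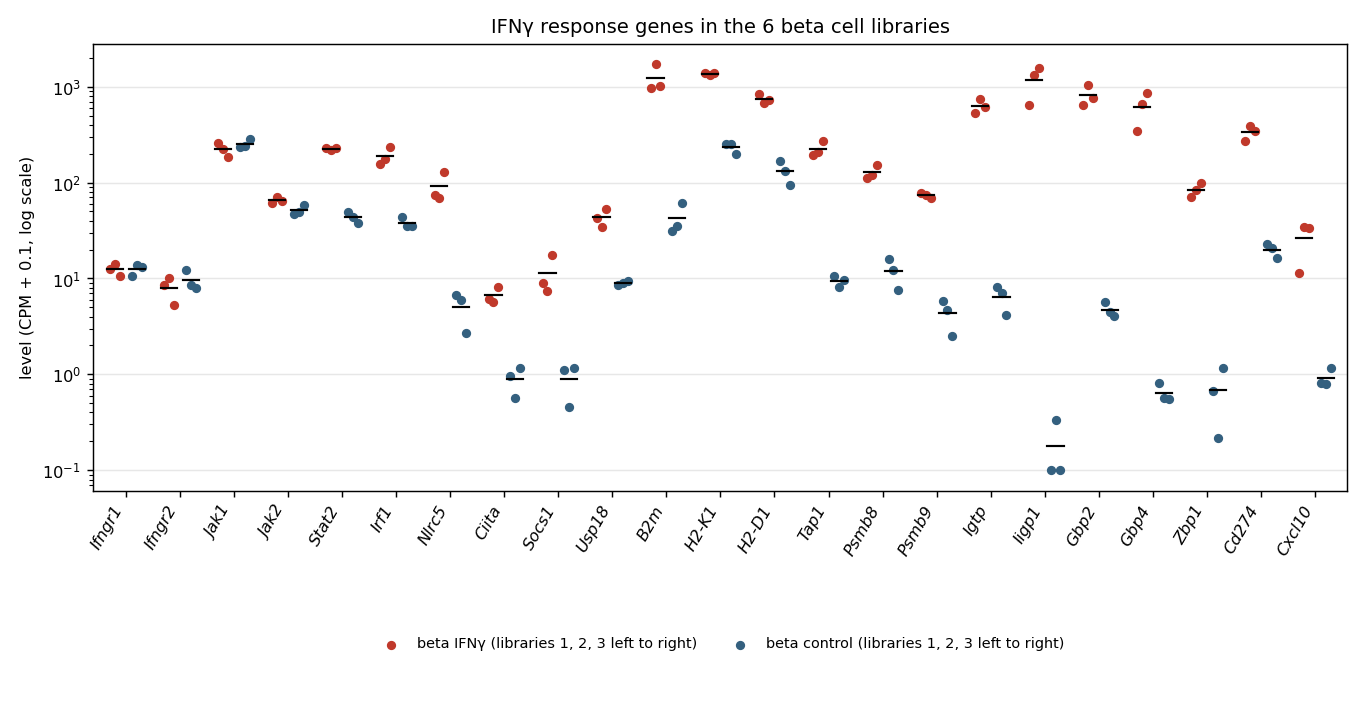
Level of 23 genes in the 6 beta cell libraries (CPM + 0.1, log axis), with 1 point per library and a black line at the group mean, IFNγ in red and control in blue. The receptor chains and Jak1 overlap between groups, while the genes right of Jak2 have every IFNγ library above every control, and Iigp1 has controls at or near 0.

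Transcription factors of the interferon response were called in 8 of 10 tested. Irf1 (ENSMUSG00000018899, chromosome 11, 53770014 to 53778374) had 157, 176 and 237 CPM in IFNγ beta cells, against 43.6, 34.9 and 35.5 CPM in control beta cells, a log2 fold change of 2.32 ± 0.22 (SE), adjusted p = 1.2e-06. Irf7, a factor of antiviral responses, had 41.8, 48.7 and 62.9 CPM in IFNγ beta cells, against 5.27, 3.04 and 5.93 CPM in control beta cells, a log2 fold change of 3.44 ± 0.39 (SE), adjusted p = 1.4e-05. Irf9, the DNA-binding subunit of the type I interferon complex, had 73.9, 78.7 and 71.5 CPM in the IFNγ libraries and 28.8, 22.7 and 23.7 CPM in the controls, and Irf2, which competes with Irf1, had 38.02, 43.7 and 42.5 CPM in the IFNγ libraries and 24.4, 20.4 and 29.4 CPM in the controls, a log2 fold change of 0.75. The coactivators of antigen presentation genes rose as well. Nlrc5, the class I transactivator, had 74.6, 69.5 and 129.5 CPM in IFNγ beta cells, against 6.55, 5.85 and 2.59 CPM in control beta cells, a log2 fold change of 4.18 ± 0.40 (SE), adjusted p = 1.3e-06. Ciita, the class II transactivator, had 6.04, 5.57 and 8.04 CPM in IFNγ beta cells, against 0.855, 0.468 and 1.06 CPM in control beta cells, a log2 fold change of 3.05 ± 0.57 (SE), adjusted p = 0.0050, and its adjusted p was 0.062 without control 2. Irf8 reached 3.55, 4.98 and 7.81 CPM in IFNγ beta cells, against 0, 0 and 0.457 CPM in control beta cells, where it had 3 counts in all, for a ratio of counts of 42.03 (14.1 to 206) (95% counting interval). Batf2, with 0 control counts, had 0.355, 3.56 and 2.10 CPM in the IFNγ libraries, at least 16.3-fold higher by the floor of 3 counts over the group, and its call was lost without control 1, 2 or 3 or without IFNγ library 2, with adjusted p from 0.064 to 0.089, and with the replicate number as a block (adjusted p = 0.063). Irf1, Nlrc5 and Cd274 each overlap a called transcript of the other strand, whose reads can be told apart from theirs only if the counting used strand. The same holds for Tap1 and Psmb9, which overlap each other on opposite strands. The libraries were made strand-specific, and the sources used do not say how strand entered the counting. Parp14 overlaps a called transcript of its own strand, as do Igtp, Irgm2, Gbp4, Gbp6 and Gbp10 among others, and such reads cannot be told apart by strand. Irf3 was not called, at a log2 fold change of 0.12. Without controls 1 and 3, 5 of the 10 were called.

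Promoters of the genes called higher held the 2 response elements more often than promoters of all genes tested. RefSeq gave a window of 250 bases before to 50 after the start for 131 of the 183 genes, in the GRCm38.p6 build. The GAS letters, TTCNNNGAA, which read the same on both strands, were in 27 of the 131 (20.6%), against 8.41% of the 11038 genes tested with a window and 9.55% of all 27025 genes with one. The core of the ISRE, GAAANNGAAA on either strand, was in 50 of the 131 (38.2%), against 3.68% of the tested genes and 3.99% of all. At least 1 of the 2 was found in 61 of the 131 (46.6%), against 11.5% of the genes tested. These shares are descriptions, with no test. A match is a description of letters, and a window without one says only that the letters were not within those 300 bases.

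The promoters of 7 genes are printed here as examples of windows that hold GAS or ISRE letters, so they do not stand for the called genes as a whole. Each is the 250 bases before the start, 5′ to 3′ on the strand of the gene, with GAS and ISRE letters in capitals.
Irf1 (chr11:53769764-53770013, plus strand): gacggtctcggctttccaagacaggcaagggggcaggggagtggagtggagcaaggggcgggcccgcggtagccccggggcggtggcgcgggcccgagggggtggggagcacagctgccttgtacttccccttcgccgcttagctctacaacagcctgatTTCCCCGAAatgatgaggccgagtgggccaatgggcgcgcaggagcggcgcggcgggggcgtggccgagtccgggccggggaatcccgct
Igtp (chr11:58199306-58199555, plus strand): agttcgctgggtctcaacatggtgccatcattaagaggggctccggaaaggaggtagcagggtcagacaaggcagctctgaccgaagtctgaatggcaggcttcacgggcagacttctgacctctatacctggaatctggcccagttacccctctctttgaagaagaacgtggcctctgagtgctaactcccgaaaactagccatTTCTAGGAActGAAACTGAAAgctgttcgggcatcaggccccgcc
Irgm2 (chr11:58214727-58214976, plus strand): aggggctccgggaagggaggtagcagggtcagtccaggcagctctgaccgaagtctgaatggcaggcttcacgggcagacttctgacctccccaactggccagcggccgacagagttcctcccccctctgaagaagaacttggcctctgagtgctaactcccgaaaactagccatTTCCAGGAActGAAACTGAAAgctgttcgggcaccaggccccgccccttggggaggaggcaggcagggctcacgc
Gbp2 (chr3:142620413-142620662, plus strand): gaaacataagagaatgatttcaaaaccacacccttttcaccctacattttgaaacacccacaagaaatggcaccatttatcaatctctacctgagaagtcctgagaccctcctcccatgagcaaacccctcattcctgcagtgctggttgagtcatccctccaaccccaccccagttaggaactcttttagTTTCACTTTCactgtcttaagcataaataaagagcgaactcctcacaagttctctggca
B2m (chr2:122147437-122147686, plus strand): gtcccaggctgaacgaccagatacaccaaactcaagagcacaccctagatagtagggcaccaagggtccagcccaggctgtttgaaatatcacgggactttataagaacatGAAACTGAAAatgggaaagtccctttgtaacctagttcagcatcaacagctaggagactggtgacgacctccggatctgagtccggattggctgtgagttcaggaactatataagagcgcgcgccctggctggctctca
Socs1 (chr16:10785537-10785786, minus strand): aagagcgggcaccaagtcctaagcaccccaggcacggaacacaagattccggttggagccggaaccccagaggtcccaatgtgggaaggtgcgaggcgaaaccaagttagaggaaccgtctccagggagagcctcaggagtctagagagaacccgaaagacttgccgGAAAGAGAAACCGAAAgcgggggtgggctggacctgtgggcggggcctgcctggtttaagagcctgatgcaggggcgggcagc
Ifit3 (chr19:34583279-34583528, plus strand): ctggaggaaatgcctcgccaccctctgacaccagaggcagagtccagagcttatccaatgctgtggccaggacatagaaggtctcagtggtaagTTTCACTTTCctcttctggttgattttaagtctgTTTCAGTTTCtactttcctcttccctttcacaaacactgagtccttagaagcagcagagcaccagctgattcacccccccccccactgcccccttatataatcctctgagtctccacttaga
The printed Irf1 window held 1 GAS that begins 90 bases before the start and no ISRE core. A window at a second start of Irf1 (chr11:53770223-53770472) held neither. In Igtp a GAS at -45 was followed by an ISRE core at -34, and in the neighbouring Irgm2 the same pair stood at -75 and -64. Gbp2 had 1 ISRE core at -59 and B2m had 1 at -139. Socs1 had 2 overlapping cores at -83 and -77, and Ifit3 had 2 separate cores at -156 and -122. Capitals on the reverse strand read TTTCNNTTTC, as in Gbp2 and Ifit3. Of the 13 genes called in the IRG family, 9 had a window, 5 with a GAS and 7 with an ISRE core, whereas of the 8 called MHC class I chains all had a window, 0 with a GAS and 3 with an ISRE core. The 250 bases before the start of Cd274, Tap1, Psmb9, Tapbp, H2-K1 and H2-D1 held neither.

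The largest rises were those of the immunity-related GTPases (IRG), which act on the vacuoles of intracellular parasites. Of 14 genes tested, 13 were higher, with a median log2 fold change of 10.19, or 8.53 with bounds for controls at 0. Summed over the list, they had 3167, 5379 and 5288 CPM in IFNγ beta cells, against 38.7, 36.4 and 34.7 CPM in control beta cells. IFNγ library 1 was lower than the other two, and all 3 were above every control. Igtp had 537, 742 and 611 CPM in IFNγ beta cells, against 8.12, 6.91 and 4.11 CPM in control beta cells, a log2 fold change of 6.62 ± 0.36 (SE), adjusted p = 7.0e-10, and Irgm2 had 307, 401 and 389.7 CPM in the IFNγ libraries and 9.54, 8.55 and 5.63 CPM in the controls, a log2 fold change of 5.53 ± 0.28. Irgm1, a regulator of the family, had 431, 638 and 610.2 CPM in the IFNγ libraries and 20.2, 18.97 and 24.9 CPM in the controls. Unlike these 3, the effector members were almost without counts in controls. Iigp1 had 639, 1321 and 1573 CPM in IFNγ beta cells, against 0, 0.234 and 0 CPM in control beta cells, where it had 2 counts in all, for a ratio of counts of 13800 (3821 to 114000). Tgtp1 had 532, 966 and 906 CPM with IFNγ, against 0.427, 0 and 0 CPM in controls, a ratio of counts of 6164 (2109 to 29890). F830016B08Rik, with 0 control counts, had 124, 267 and 275 CPM in IFNγ beta cells and was at least 1730-fold higher by the floor of 3 counts over the control group, and 9930111J21Rik1 was at least 280.5-fold higher by the same floor. Gvin1 was the 1 member not called, at an adjusted p of 0.79. Several members are near-identical copies or overlap on the genome, such as Tgtp1 and Gm12185, so the split of reads among them is uncertain.

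All 11 guanylate-binding proteins (GBP) tested were higher, with a median log2 fold change of 6.25. GBPs are large GTPases that attach to the vacuoles and membranes of intracellular pathogens. Their summed level was 3181, 4927 and 4935 CPM in IFNγ beta cells, against 61.8, 54.4 and 68.3 CPM in control beta cells. Gbp2 had 642, 1038 and 761 CPM in IFNγ beta cells, against 5.55, 4.33 and 3.96 CPM in control beta cells, a log2 fold change of 7.46 ± 0.44 (SE), adjusted p = 1.7e-09. Gbp6 had 875, 1321 and 1148 CPM in IFNγ beta cells, against 21.5, 19.1 and 18.7 CPM in control beta cells, a log2 fold change of 5.82 ± 0.33 (SE), adjusted p = 1.2e-09. Gbp4 had 348, 653 and 863 CPM in IFNγ beta cells, against 0.712, 0.468 and 0.457 CPM in control beta cells, and Gbp10 had 379.5, 648 and 758 CPM in the IFNγ libraries and 1.14, 0.351 and 1.83 CPM in the controls, with log2 fold changes of 10.12 ± 0.53 and 9.11 ± 0.52. In both genes IFNγ library 1 was the lowest of the 3 and far above the controls. Gbp2b, with 0 control counts, had only 1.60, 2.49 and 1.63 CPM in the IFNγ libraries, at least 14.3-fold higher by the floor of 3 counts, and its call was lost without control 1, 2 or 3 or IFNγ library 2 (adjusted p from 0.058 to 0.076) and with the replicate block (adjusted p = 0.18).

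Class I antigen presentation had called genes among its chains, its peptide loading and its proteasome subunits. Of 15 class I chains tested, 8 were higher, with a median log2 fold change of 2.51 over the list. B2m, the light chain of all class I molecules, had 976, 1714 and 1026 CPM in IFNγ beta cells, against 31.2, 35.2 and 60.6 CPM in control beta cells, a log2 fold change of 4.87 ± 0.41 (SE), adjusted p = 2.3e-07. The classical heavy chain H2-K1 had 1404, 1314 and 1396 CPM in IFNγ beta cells, against 250.4, 254 and 201 CPM in control beta cells, a log2 fold change of 2.54 ± 0.25 (SE), adjusted p = 1.5e-06. H2-D1 had 830.3, 673 and 729 CPM in IFNγ beta cells, against 166, 132 and 93.4 CPM in control beta cells, a log2 fold change of 2.51 ± 0.28 (SE), adjusted p = 1.2e-05. Per transcript length, B2m had 744, 1311 and 872 TPM in IFNγ beta cells, against 19.98, 28.3 and 44.8 TPM in control beta cells, and H2-K1 had 1030, 918 and 923 TPM, against 130.1, 175 and 109.9 TPM. The mean TPM of B2m was thus below that of H2-K1 in control beta cells and close to it with IFNγ. The nonclassical chain H2-T23, a ligand of inhibitory receptors on natural killer cells, had 341, 368 and 447 CPM in IFNγ beta cells, against 26.2, 17.3 and 13.2 CPM in control beta cells, a log2 fold change of 4.35 ± 0.34 (SE), adjusted p = 8.6e-08. H2-Q6 and H2-Q7, which are close copies of each other, had 108, 116 and 111 CPM and 80.3, 97.4 and 97.2 CPM in IFNγ beta cells, against 2.14, 1.99 and 0.913 CPM and 1.99, 2.34 and 0.913 CPM in control beta cells. Mr1, which presents bacterial metabolites, had 4.44, 5.81 and 3.61 CPM in the IFNγ libraries and 6.12, 5.39 and 4.87 CPM in the controls and was not called.

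Peptide supply followed the chains. Tap1, a subunit of the peptide transporter, had 192, 209 and 271 CPM in IFNγ beta cells, against 10.4, 7.96 and 9.43 CPM in control beta cells, a log2 fold change of 4.60 ± 0.30 (SE), adjusted p = 9.8e-09. Tap2, the other subunit, had 105, 87.4 and 124 CPM in the IFNγ libraries and 25.6, 16.2 and 10.7 CPM in the controls, a log2 fold change of 2.59 ± 0.39, and Tapbp, the tapasin that ties the transporter to class I, had 812, 860.5 and 1157 CPM in the IFNγ libraries and 283, 198 and 181 CPM in the controls, a log2 fold change of 2.09 ± 0.26. Erap1, which trims peptides, had 261, 329.6 and 284 CPM in the IFNγ libraries and 135, 154 and 150.0 CPM in the controls, a log2 fold change of 0.99 ± 0.23, adjusted p = 0.046. Of the 8 peptide loading genes tested, 5 were called, against 4 without control 1 and 4 without control 3. The general chaperones of the endoplasmic reticulum that also serve class I, Calr, Canx and Pdia3, had log2 fold changes of -0.02, -0.19 and -0.01 and were not called.

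All 6 immunoproteasome genes tested were higher, with a median log2 fold change of 2.36, while 0 of 16 constitutive genes were called, with a median of 0.15. Without control 1, and likewise without control 3, 5 of the 6 were called. Psmb8 had 110.5, 120.2 and 152 CPM in IFNγ beta cells, against 15.8, 12.3 and 7.46 CPM in control beta cells, Psmb9 had 78.7, 74.2 and 69.5 CPM in the IFNγ libraries and 5.70, 4.57 and 2.44 CPM in the controls and Psmb10 had 98.1, 99.1 and 114 CPM in the IFNγ libraries and 20.5, 19.6 and 8.98 CPM in the controls. Per transcript length, Psmb8 stood at 3.45, 3.71 and 4.40 times the TPM of Psmb5, the subunit it replaces, in IFNγ beta cells, against 0.404, 0.385 and 0.329 times in control beta cells. Psmb9 stood at 1.73, 1.83 and 1.32 times the TPM of its constitutive counterpart Psmb6 with IFNγ, against 0.122, 0.115 and 0.0888 times in controls. Psmb10 stood at 3.59, 2.78 and 4.24 times that of Psmb7 with IFNγ, against 0.548, 0.654 and 0.276 times in controls. In each pair the inducible subunit was below its counterpart in every control and above it in every IFNγ library. Psmb5 itself had 15.9, 15.7 and 18.9 TPM with IFNγ and 16.8, 14.6 and 10.1 TPM in controls. Psme1, a subunit of the proteasome activator, had 186, 182 and 111 CPM in the IFNγ libraries and 43.3, 44.4 and 26.5 CPM in the controls, and its adjusted p became 0.068 without controls 1 and 3, when 3 of the 6 immunoproteasome genes were still called. Psma7 came nearest to a call among the constitutive genes, with 74.8, 68.5 and 75.1 CPM in the IFNγ libraries and 43.02, 49.3 and 42.5 CPM in the controls and an adjusted p of 0.063. It was called with DESeq2 (adjusted p = 0.011), in the 6 beta libraries alone (0.046), with the date block (0.023) and without delta control 3 (0.048) or delta IFNγ library 3 (0.028).

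Class II genes were called in 5 of the 7 tested, with a median log2 fold change of 8.89 over the list, or 6.20 with bounds for controls at 0. Cd74, the invariant chain, had 34.6, 56.8 and 58.05 CPM in IFNγ beta cells, against 0.142, 0 and 0.152 CPM in control beta cells, a ratio of counts of 573 (158 to 4735). H2-Aa had 18.6, 35.9 and 33.8 CPM with IFNγ, against 0, 0.117 and 0 CPM in controls, and H2-Ab1, its partner chain, had 8.88, 11.1 and 9.44 CPM with IFNγ and 0 counts in controls, at least 73.3-fold higher by the floor of 3 counts. H2-DMb1, a chain of the peptide editor of class II, had 5.68, 8.06 and 7.46 CPM with IFNγ and 0 counts in controls. The list summed to 108, 148 and 143 CPM in IFNγ beta cells, against 29.5, 27.2 and 16.7 CPM in control beta cells. Most of the control sum was Ifi30, which was not called and averaged 20.9 CPM with IFNγ and 21.4 CPM in controls. The 20 immune cell genes summed to 7.82, 7.11 and 8.04 CPM with IFNγ, against 7.26, 5.39 and 5.48 CPM in controls, with 13 of the 20 at 0 in all 6 libraries, Ptprc and Cd3e among them. Of the macrophage genes in the list, C1qa had 2.67, 3.79 and 4.66 CPM in the IFNγ libraries and 2.99, 2.93 and 3.19 CPM in the controls, and Cd68 had 3.55, 2.49 and 1.63 CPM in the IFNγ libraries and 2.99, 1.76 and 1.37 CPM in the controls, with neither called. The myeloid genes Lyz2, Itgam, Csf1r, Adgre1, Tyrobp, Fcer1g and C1qb of the same list did not pass the filter on low counts. The part of such cells in the class II result was not tested.

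Genes that restrain immune cells were called in 4 of 12. Cd274, which encodes PD-L1, had 271, 391 and 348 CPM in IFNγ beta cells, against 22.8, 20.6 and 16.3 CPM in control beta cells, a log2 fold change of 4.08 ± 0.30 (SE), adjusted p = 3.8e-08. Il18bp, a secreted decoy that binds the cytokine IL-18, had 264, 455 and 341 CPM in IFNγ beta cells, against 42.6, 39.7 and 31.2 CPM in control beta cells, a log2 fold change of 3.22 ± 0.23 (SE), adjusted p = 2.3e-08. Lgals9, a galectin that binds receptors of T cells, had 6.39, 10.7 and 12.5 CPM in IFNγ beta cells, against 0.855, 0.117 and 0 CPM in control beta cells, and Serpina3f, a protease inhibitor, had 1.78, 4.98 and 3.38 CPM in the IFNγ libraries and 0, 0 and 0.152 CPM in the controls. The call of Lgals9 was lost without controls 1 and 3 (adjusted p = 0.066), and that of Serpina3f was lost without control 1, 2 or 3 or IFNγ library 2 (adjusted p from 0.069 to 0.17). Tnfrsf14, a receptor that binds the inhibitory receptor BTLA, had 17.2, 22.6 and 28.3 CPM in the IFNγ libraries and 9.69, 4.68 and 4.57 CPM in the controls, with an adjusted p of 0.073 in all libraries. It was called with DESeq2 (adjusted p = 0.011), limma-voom (0.043), GC offsets (0.015) and the date block (0.039), in the 6 beta libraries alone (0.022) and without control 1 (0.046), among other fits. Without controls 1 and 3, 2 of the 12 were called.

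Of 17 chemokine, cytokine and adhesion genes listed, 6 passed the filter on low counts and 1 was called, with 1.06% called over all genes tested. Cxcl10, which draws CXCR3-positive T cells, had 11.2, 34.02 and 33.3 CPM in IFNγ beta cells, against 0.712, 0.703 and 1.06 CPM in control beta cells, a log2 fold change of 4.98 ± 0.58 (SE), adjusted p = 1.7e-05, with IFNγ library 1 the lowest of its group. The related Cxcl9 did not pass the filter on low counts, with 0, 0.356 and 0 CPM in IFNγ beta cells, against 0 in control beta cells, and Cxcl11 had 0, 0.593 and 0.233 CPM with IFNγ and 0 in controls. Csf1, a growth factor of macrophages, had 40.7, 36.5 and 31.1 CPM in the IFNγ libraries and 26.6, 23.5 and 23.3 CPM in the controls, and no library overlapped between the groups. Its adjusted p was 1 in all libraries and 0.044 in the 4 libraries of 2 dates with the date block, where it was called. Icam1, an adhesion molecule, had 0.355, 0.948 and 0.932 CPM in the IFNγ libraries and 2.99, 0.468 and 0 CPM in the controls. Il7 had 2.13, 3.20 and 1.98 CPM in the IFNγ libraries and 1.71, 0.351 and 0 CPM in the controls and was called without control 1 (adjusted p = 0.022) but not in all libraries (adjusted p = 0.68).

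Antiviral genes formed the largest group of calls, 21 of 29 tested, with a median log2 fold change of 1.93. Zbp1, a sensor of left-handed nucleic acids, had 70.3, 84.4 and 98.4 CPM in IFNγ beta cells, against 0.570, 0.117 and 1.06 CPM in control beta cells, a log2 fold change of 7.23 ± 0.39 (SE), adjusted p = 7.0e-10. Ifit2, which binds viral RNA complexes, had 24.2, 13.9 and 22.03 CPM in IFNγ beta cells, against 0.285, 0.234 and 0 CPM in control beta cells, a log2 fold change of 6.68 ± 0.56 (SE), adjusted p = 1.9e-07, and Ifi44 had 23.6, 28.2 and 37.8 CPM in the IFNγ libraries and 0.285, 0 and 0.457 CPM in the controls. The RNA sensors Ifih1, Ddx58 and Dhx58 had log2 fold changes of 1.10 ± 0.22, 1.44 ± 0.21 and 3.19 ± 0.41 (SE). Sp100, a nuclear body protein, had 2.31, 2.25 and 1.75 CPM with IFNγ and 0 counts in controls, and its call was lost with the replicate block (adjusted p = 0.077). Mx1 had 4.62, 3.32 and 5.36 CPM in the IFNγ libraries and 0.855, 1.17 and 2.44 CPM in the controls, with an adjusted p of 0.78. Samd9l, an antiviral factor, had 94.7, 116 and 117 CPM in the IFNγ libraries and 38.7, 40.9 and 61.8 CPM in the controls, with an adjusted p of 0.054 and of 0.020 with the replicate block, where it was called. Samd9l was also called with DESeq2 (adjusted p = 0.011), with GC offsets (6.7e-06) and in the 6 beta libraries alone (0.012), among other fits, but not in every fit. Without controls 1 and 3, 13 of the 29 were called.

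The OAS list, whose enzymes make a messenger of antiviral RNA decay, had 6 of 9 genes called. Oas2 had 94.9, 84.2 and 137 CPM in IFNγ beta cells, against 8.97, 6.21 and 9.74 CPM in control beta cells, a log2 fold change of 3.67 ± 0.41 (SE), adjusted p = 9.1e-06, and Oasl2 had 219, 266 and 279 CPM in IFNγ beta cells, against 11.96, 11.6 and 13.2 CPM in control beta cells, a log2 fold change of 4.37 ± 0.35 (SE), adjusted p = 1.1e-07. Oas3 had 7.46, 6.76 and 9.09 CPM with IFNγ and 0 counts in controls, at least 57.7-fold higher by the floor of 3 counts. In the ISG15 conjugation pathway, 9 of 10 genes were called. Isg15 had 3.91, 2.02 and 5.48 CPM in IFNγ beta cells, against 0.142, 0.117 and 0.152 CPM in control beta cells. The enzymes that attach it rose with it. Uba7, the activating enzyme, had 148, 135 and 185 CPM in IFNγ beta cells, against 26.9, 21.8 and 16.7 CPM in control beta cells, Ube2l6, the conjugating enzyme, had 142, 153 and 135 CPM in the IFNγ libraries and 23.5, 14.99 and 8.98 CPM in the controls, and Herc6, the ligase, had 87.2, 98.6 and 126 CPM in the IFNγ libraries and 14.1, 19.7 and 20.7 CPM in the controls, with log2 fold changes of 2.84 ± 0.31, 3.18 ± 0.29 and 2.52 ± 0.25. The Isg15 call was lost without controls 1 and 3 (adjusted p = 0.35), when 5 of the 10 were still called.

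Some members of the PARP family, which attach ADP-ribose to proteins, were called and others were not. Parp14 had 310.5, 400.2 and 394 CPM in IFNγ beta cells, against 56.7, 48.7 and 50.8 CPM in control beta cells, a log2 fold change of 2.82 ± 0.22 (SE), adjusted p = 5.6e-08. Parp9 had 105, 127 and 143 CPM in the IFNγ libraries and 26.6, 25.8 and 21.9 CPM in the controls, and Parp12 had 116, 151 and 172 CPM in the IFNγ libraries and 30.8, 30.8 and 26.2 CPM in the controls, with log2 fold changes of 2.33 ± 0.19 and 2.32 ± 0.18. The DNA repair enzymes Parp1 and Parp2 had log2 fold changes of 0.04 and 0.01 and were not called. Parp4, Parp6, Parp8 and Parp16 were not called either, at 0.11, -0.03, -0.17 and -0.22. In all 6 of 12 were called, and 1 of these, Parp3, had 3.38, 3.79 and 3.61 CPM in the IFNγ libraries and 0.142, 1.41 and 0.152 CPM in the controls and lost its call without control 1 or 3 or any 1 IFNγ library (adjusted p from 0.054 to 0.14). The TRIM family of ubiquitin ligases had 4 of 9 called, with Trim34a at 30.6, 24.8 and 29.8 CPM in the IFNγ libraries and 6.27, 6.09 and 4.11 CPM in the controls and Trim21, an antibody receptor in the cytosol, at 32.5, 35.4 and 40.5 CPM in the IFNγ libraries and 11.7, 11.2 and 7.61 CPM in the controls. Trim5, at most 1.60 CPM in a library, lost its call without control 1 or 2 or IFNγ library 1 or 2 (adjusted p from 0.054 to 0.12) and with the replicate block (adjusted p = 0.058). Without controls 1 and 3, 3 of the 12 PARP genes were called.

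Complement genes were called in 3 of 10. Serping1, the inhibitor of the first complement protease, had 644, 926 and 793 CPM in IFNγ beta cells, against 109, 107 and 57.97 CPM in control beta cells, a log2 fold change of 3.11 ± 0.27 (SE), adjusted p = 3.3e-07. C1ra, that protease's own gene, had 12.4, 17.4 and 20.6 CPM in IFNγ beta cells, against 0.427, 1.05 and 0 CPM in control beta cells, a log2 fold change of 4.95 ± 0.62 (SE), adjusted p = 4.3e-05. C4b had 6.39, 4.15 and 6.99 CPM in the IFNγ libraries and 2.56, 0.585 and 0.152 CPM in the controls and was called without control 1 (adjusted p = 0.024) but not in all libraries (adjusted p = 0.25). Among 23 cell death genes tested, 5 were called. Tnfsf10, which encodes the death ligand TRAIL, had 144, 196 and 187 CPM in IFNγ beta cells, against 8.55, 11.2 and 11.7 CPM in control beta cells, a log2 fold change of 4.07 ± 0.28 (SE), adjusted p = 1.2e-08. Mlkl, the pore-forming protein of necroptosis, had 29.3, 38.05 and 27.5 CPM in IFNγ beta cells, against 3.42, 4.68 and 2.13 CPM in control beta cells, a log2 fold change of 3.19 ± 0.31 (SE), adjusted p = 1.2e-06, and Apol9a and Apol9b, near-identical copies, had 15.3, 10.9 and 13.2 CPM and 9.77, 6.64 and 5.95 CPM with IFNγ, against 0, 0.234 and 0 CPM and 0, 0.117 and 0 CPM in controls. The 8 mitochondrial regulators of the BCL2 family tested were not called, with log2 fold changes of -0.13 for Bcl2l11 to 0.91 for Bak1. Bak1, which permeabilises the outer membrane, averaged 14.97 ± 1.84 CPM in IFNγ beta cells and 8.01 ± 2.24 CPM in control beta cells (SD, n = 3 each). Fas, the death receptor, stayed at or under 0.474 CPM.

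Of 8 genes of tryptophan and NAD use, 2 were called. Wars, the tryptophanyl-tRNA synthetase, had 498, 609.8 and 615 CPM in IFNγ beta cells, against 188, 176 and 151 CPM in control beta cells, a log2 fold change of 1.74 ± 0.25 (SE), adjusted p = 0.00029. Nampt, which recycles nicotinamide for NAD, had 151, 219.9 and 194 CPM in IFNγ beta cells, against 57.8, 72.2 and 94.3 CPM in control beta cells, a log2 fold change of 1.33 ± 0.29 (SE), adjusted p = 0.026, and its call was lost without control 1 or 2 or IFNγ library 2 or 3 (adjusted p from 0.098 to 0.19). Ido1, which breaks down tryptophan, had 1.60, 2.02 and 2.33 CPM with IFNγ and 0 counts in controls, at least 14.99-fold higher by the floor of 3 counts, with an adjusted p of 0.058 in all 18 libraries and 0.012 in the 6 beta libraries alone. Without controls 1 and 3, 0 of the 8 were called, and Wars had an adjusted p of 0.093.

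Other stress programmes were not called. With 1.06% of all genes tested called, lists of this size would hold few calls or none at that share. In the list of NF-kB and oxidant defence, 0 of 16 genes were called and the median log2 fold change was 0.07. Nos2, the inducible nitric oxide synthase, had 0, 1.66 and 0.466 CPM with IFNγ and 0 in controls. It was called without the filter on low counts (adjusted p = 0.032) and not with it (adjusted p = 1). Sod2, the mitochondrial superoxide dismutase, had 67.5, 72.3 and 81.5 CPM in the IFNγ libraries and 88.03, 83.6 and 108 CPM in the controls. In the unfolded protein response, 0 of 20 genes were called and the median was -0.03. Hspa5, the main chaperone of the endoplasmic reticulum, had 1269, 1294 and 1049 CPM in the IFNγ libraries and 904, 1264 and 1900 CPM in the controls, and Ddit3, which encodes CHOP, had 82.8, 60.9 and 37.9 CPM in the IFNγ libraries and 53.98, 41.6 and 32.3 CPM in the controls, with an interval of the log2 fold change of -0.30 to 1.31. Within the 2 dates that hold both treatments, Ddit3 was called higher, with a log2 fold change of 0.57 ± 0.10 (SE) (adjusted p = 0.017). In all libraries it was 0.50 ± 0.38 and was not called. The fit with the date block has only 4 libraries, which limits its calls here and elsewhere. The 16 glycolysis and 20 oxidative phosphorylation genes had medians of 0.10 and -0.06, with 0 called in either. With the date block Slc2a1, a glucose transporter of the glycolysis list, was called higher (log2 fold change 0.80, adjusted p = 0.044).

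**Figure D4:**
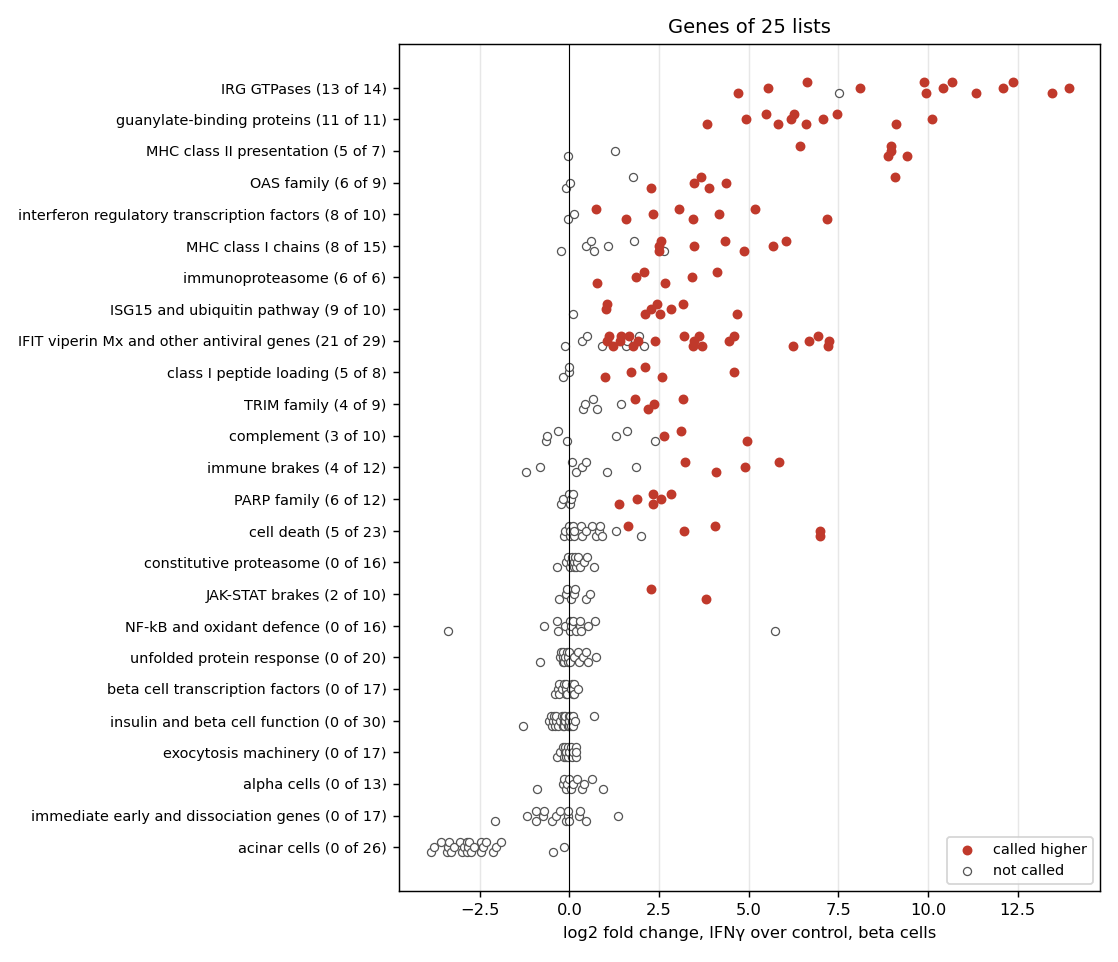
Log2 fold change of IFNγ over control in beta cells for the genes tested in 25 lists, with 1 point per gene, filled where called higher and open where not called, and the count called of those tested after each name. All or nearly all members of the GTPase and immunoproteasome lists are filled, none of the beta cell, stress or acinar lists is, and the open acinar points reach -3.86.

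Genes of beta cell identity were not called. Of 17 transcription factors tested, 0 were called and the median log2 fold change was -0.08. Of all genes tested 1.06% were called, and at that share a list this short would hold few calls or none. The same goes for the lists of beta cell function, antigens and exocytosis below. In these lists the adjusted p-values rest on a spread estimated over all 18 libraries, alpha and delta cells included. The SE of the log2 fold change of Mafa was 0.66 in that fit and 0.10 with the date block. Pdx1, which controls insulin and glucose-sensing genes, had 109.6, 109 and 76.6 CPM in IFNγ beta cells, against 96.3, 97.4 and 119.9 CPM in control beta cells. Nkx6-1, a repressor of other islet fates, had 262, 233 and 203 CPM in IFNγ beta cells, against 210.5, 232 and 427 CPM in control beta cells, and Neurod1, an activator of the insulin genes, had 337, 329 and 277 CPM in the IFNγ libraries and 276, 355 and 532 CPM in the controls. Pax6 had 408, 364 and 402 CPM in the IFNγ libraries and 341, 372 and 414 CPM in the controls, with the narrowest interval of these, -0.29 to 0.41 on the log2 scale. Control 3 was the highest library for Mafa, Pdx1, Nkx6-1 and Neurod1, and without it the log2 fold change of Mafa was 0.30 in place of -0.41.

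In the list of insulin and beta cell function, 0 of 30 genes were called, with a median of -0.15. The interval for Ins1 was -1.66 to 1.34 on the log2 scale and that for Ins2 was -1.66 to 1.40, or -0.83 to 0.52 and -0.98 to 0.73 in the 6 beta libraries alone, and changes within these bounds were not detectable. The wider intervals, like the SEs that follow, rest on the spread estimated over all 18 libraries. Slc2a2, the glucose transporter, had 124, 155 and 123 CPM in IFNγ beta cells, against 149.8, 210.2 and 625 CPM in control beta cells, a log2 fold change of -1.29 ± 0.67 (SE), adjusted p = 1, and all IFNγ libraries were under control 2 and control 3 while library 2 with IFNγ overlapped control 1. Without control 3 its log2 fold change was -0.43, and without the filter on low counts it was -1.31 (adjusted p = 5.3e-06). Slc30a8, the zinc transporter of the granule, had 287, 312 and 267 CPM in the IFNγ libraries and 292, 391 and 597 CPM in the controls, a log2 fold change of -0.56 ± 0.41, or -0.24 without control 3. Among the 30, 1 had every IFNγ library above the controls and 1 had every IFNγ library below them. These orders were seen in 6.49% and 4.45% of all genes tested, so the 2 are not a result about the list. Both were chosen here after their values were seen. Glp1r, the receptor of the incretin GLP-1, had 874, 873 and 826 CPM in IFNγ beta cells, against 1216, 1076 and 1266 CPM in control beta cells, a log2 fold change of -0.47 ± 0.49, and Chgb, a granule protein, had 2221, 1857 and 1316 CPM in IFNγ beta cells, against 1054, 1261 and 1030 CPM in control beta cells, a log2 fold change of 0.69 ± 0.31, with an adjusted p of 1 for each. Chgb was called higher with the date block (log2 fold change 0.80, adjusted p = 0.031). In bulk samples of sorted cells, fewer cells of a type and less RNA per cell cannot be told apart.

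**Figure D5:**
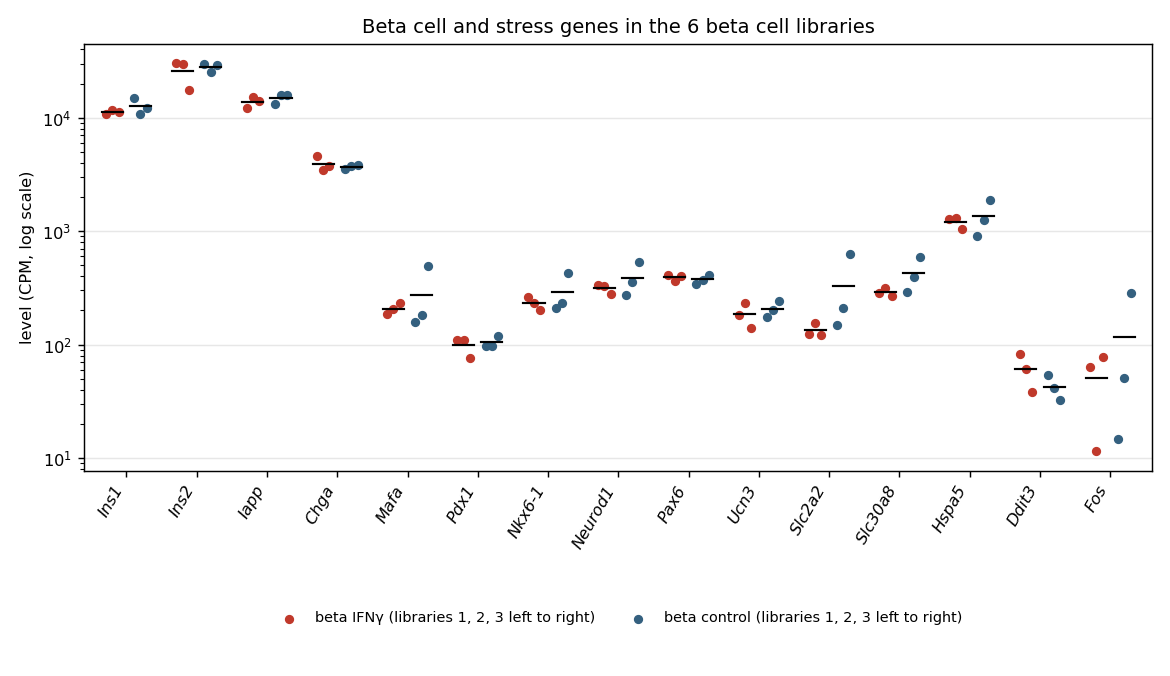
Level of 15 beta cell and stress genes in the 6 beta cell libraries (CPM, log axis), with 1 point per library and a black line at the group mean, IFNγ in red and control in blue. Most groups overlap, and control 3 is the highest library for Mafa, Pdx1, Nkx6-1, Neurod1, Ucn3, Slc2a2, Slc30a8, Hspa5 and Fos.

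Antigens recognised in type 1 diabetes were not called either, with 0 of 12 tested and a median of -0.11. Iapp, the amyloid peptide secreted with insulin, had 12270, 15190 and 14050 CPM in the IFNγ libraries and 13360, 15950 and 15920 CPM in the controls, and Chga, the source of a T cell epitope in the mouse, had 4582, 3488 and 3744 CPM in the IFNγ libraries and 3540, 3769 and 3840 CPM in the controls. Exocytosis genes gave 0 of 17, with a median of -0.05, and Syt13 had 719, 683 and 684 CPM in the IFNγ libraries and 668, 693 and 771 CPM in the controls. Genes of the sort gate gave 0 of 5, although Cd24a was called lower with the date block (log2 fold change -1.46, adjusted p = 0.042). Tfrc, which encodes CD71, had 97.7, 145 and 128 CPM in the IFNγ libraries and 84.9, 116 and 161 CPM in the controls, and Itga6, which encodes CD49f, had 103, 99.2 and 106 CPM in the IFNγ libraries and 122, 132 and 118 CPM in the controls, with every IFNγ library under the controls and an adjusted p of 1.

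Falls called in the fit on all libraries were few and did not hold across fits. Dbndd2 was the gene called lower, with 1.24, 0.474 and 1.05 CPM in IFNγ beta cells, against 4.27, 2.34 and 2.89 CPM in control beta cells, a log2 fold change of -1.79 ± 0.41 (SE), adjusted p = 0.033. It stayed under 5 CPM in every library, although the groups did not overlap. The call was lost without control 1 (adjusted p = 0.23), control 3 (0.069), IFNγ library 2 (0.28) or IFNγ library 3 (0.10), with the replicate number as a block (0.061) and in the 6 beta libraries alone (0.23), and it was lost without delta control 1 (0.051). Other genes appeared when the date was modelled. With the file-name date as a term, 27 genes were lower (0.156% of those tested), and in the 4 libraries of the 2 shared dates 75 were lower (0.526%), of which 16 and 19 were in the acinar list. The acinar sum of control 1 was 2833 CPM beside 260 CPM in IFNγ library 1 of the same date. In all 18 libraries, 0 of 26 acinar genes were called, their median log2 fold change was -2.84, and 0 had groups that did not overlap. The 2 fits with dates shared 23 genes, and those outside the enzyme genes included Hfe, an iron regulator related to class I, with 14.9, 14.8 and 17.8 CPM in IFNγ beta cells, against 42.2, 39.5 and 22.8 CPM in control beta cells, and Dnm3, a dynamin, with 57.9, 53.5 and 65.0 CPM with IFNγ, against 91.7, 97.2 and 94.9 CPM in controls. In all libraries their adjusted p was 0.37 for Hfe and 0.29 for Dnm3. Rnase4 had 245, 247 and 225 CPM in the IFNγ libraries and 552, 414 and 258 CPM in the controls and was also among the 23, with an adjusted p of 0.0051 with the date block and 0.032 with the date as a term. It was called without control 3 (log2 fold change -1.02, adjusted p = 0.029) and not in all libraries (adjusted p = 0.31). Hfe, Dnm3 and Rnase4 are named here after their values were seen.

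Many of the genes called higher were neighbours on the genome. With a gap of at most 100 kb, 14 clusters of at least 3 called genes held 69 of the 183. Of all 183, chromosomes 11, 17 and 5 held 23, 22 and 19. On chromosome 11, from 48861968 to 49135387 in GRCm38, 10 of 11 genes tested were called, among them Irgm1, Tgtp1, Tgtp2 and Ifi47, and the 1 left was the olfactory receptor Olfr1396. A second stretch of the same chromosome, 58187739 to 58222782, held Igtp, Irgm2 and Gm12250, all 3 called. On chromosome 5, from 105014150 to 105346472, all 7 genes tested were called, 6 GBPs and Gm43302, and on chromosome 3, from 142493978 to 142638008, 5 of 6 were, all GBPs. The class II region of chromosome 17, 34153072 to 34316674, had 8 of 9 called, with Tap1, Tap2, Psmb8 and Psmb9 between the class II genes H2-DMb1, H2-Ab1, H2-Aa and H2-Eb1. On chromosome 18, from 60212080 to 60442980, all 6 genes tested were called, among them Iigp1, F830016B08Rik and BC023105. On chromosome 17, from 35377021 to 35443773, 5 of 6 were called, among them H2-Q4, H2-Q6 and H2-Q7, and the Oas genes of chromosome 5, 120730333 to 120907521, had 5 of 6 called with Oas1c left out. The Ifit genes of chromosome 19, 34550694 to 34650009, had 4 of 6 called, and Parp14, Dtx3l and Parp9 lay with Gm49730 on chromosome 16, 35832874 to 35972605, with 4 of 4 called. Some of these genes are close copies whose reads the authors' counting could split.

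Set against the other islet cells, the beta response was not shown to differ. The difference between the IFNγ response of beta cells and that of alpha cells passed the test in 0 of 17338 genes (0% called), with 2305 at an unadjusted p under 0.05, and the difference from delta cells passed in 0 (0% called), with 822 at that level. DESeq2 gave 6 genes against alpha and 4 against delta cells, and limma-voom 0 and 0. Without alpha IFNγ library 2, 1375 genes differed from alpha cells, 701 with the higher log2 response in beta cells and 674 with the lower, and without the filter on low counts 539 did. Of the 183 genes, 129 (70.5%) were also called higher in alpha cells, which is 79.1% of the 163 called there, and 158 (86.3%) in delta cells, 75.6% of the 209 called there, with 125 called in all 3 cell types. Against alpha cells the lowest adjusted p was that of Irgm2, whose log2 fold change was 5.53 in beta and 3.64 in alpha cells (adjusted p = 0.34). Serping1 was next among the called genes, at 3.11 in beta and 1.47 in alpha cells (adjusted p = 0.37). Against delta cells the lowest was that of Csf1, at 0.56 in beta and 2.49 in delta cells (adjusted p = 0.68), and Lrrk2, a kinase gene, stood at 2.15 in beta and 0.14 in delta cells (adjusted p = 0.88).

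The files also give for each gene a transcript length weighted by the abundance of its isoforms, which would move if isoform use changed. Among 7905 genes with at least 50 counts in each beta library, 0 changed in this length (0% called) by limma, with 367 at an unadjusted p under 0.05. The smallest p was that of 2310022A10Rik, with lengths of 2634, 2494 and 2409 bases in IFNγ beta cells, against 1807, 1698 and 1904 bases in control beta cells (adjusted p = 0.95). Nin, a centrosome gene, had 3434, 2984 and 3154 bases with IFNγ, against 5051, 4568 and 4534 bases in controls (adjusted p = 0.95). Neither gene was called for its level, at log2 fold changes of 0.16 and 0.29.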

How the data were processed

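RNA of the 18 sorted islet cell libraries was made into cDNA libraries with the strand-specific Ovation SoLo kit and sequenced as paired ends on a NextSeq 500. GRCm38 was the genome to which the authors aligned the reads (STAR 2.5.2b), and RSEM made the gene estimates. The RSEM version and whether its counting used strand or molecular identifiers are not given in the sources used. The deposited files hold, for each gene, an expected count (an estimate that need not be whole), TPM and an average transcript length in bases. Gene symbols and positions came from GENCODE M21, which matched 55227 of 55487 identifiers (99.5%), and promoters from RefSeq in GRCm38.p6.

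The deposited expected counts were rounded to whole numbers. The main test was the quasi-likelihood test of edgeR 4.0.16 in R 4.3.3 on all 18 libraries, with a mean per cell type and treatment, TMM scaling, filterByExpr with a minimum count of 10 and Benjamini-Hochberg adjustment over 17338 genes at 0.05. All 18 libraries share 1 estimate of the spread. Every adjusted p without another named tool comes from this test. The difference between cell types was the interaction term of the same fit. The average length was tested with limma 3.58.1, and the authors' deposited TPM was tested with limma on log2(TPM + 1) as an alternative, where a fold change understates that of low genes. Other alternatives were DESeq2 1.42.0, limma-voom, other scaling, no filter, GC offsets, the date in the file names, and libraries left out. Intervals are 95% and, like the floor of 3 counts, those on counts cover counting error only. P-values measure the spread between these libraries.

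Treatment and control libraries of 1 number deviated together, with correlations of 0.278, 0.235 and 0.134 over 14776 genes, against -0.266 to 0.085 for pairs of unlike number. A fit with the number as a block was therefore also made. Only the libraries of numbers 1 and 2 share a file-name date, and those of number 3 do not. The labels name no batch. No pair of libraries of 1 group agreed within sampling noise. On simulated counts of 16918 genes for this comparison, the test called the right way 42% of genes changed 2-fold, 94% of those changed 4-fold, 100% of those changed 8-fold and 22% of those lowered to a fold of 0.5, and it called 8 unchanged genes. Genes near 0 counts were not among those changed, and the simulated spread followed the trend over genes. Differences of controls 1 and 3 and of dates were not simulated, so the shares called in the real libraries may be lower. The rule for named genes took a fixed set of pathway and beta cell genes, the 10 largest rises with at least 5 CPM in a group mean, the 10 largest differences of mean CPM, up to 4 called members of each list or, where none was called, its 2 most abundant members, 15 called genes of lowest p outside the lists, genes called lower, up to 5 called only with beta control 1 or only with beta control 3 left out, and up to 5 for each difference between cell types and for the length test. The comparison, members and lists were chosen with earlier results of these data known. Other list members that the text names were chosen after their values were seen. Some genes of the lists are not reported here.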

Additional observations from a re-analysis of the deposited data

How the results depend on the processing

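The count of genes called higher, 183, ranged from 147 to 196 when single libraries were left out, with 145 and 182 of these among the 183. The count was 110 without both beta control 1 and beta control 3, and 275 in the 4 beta libraries of 2 dates with a date block. No gene among the 183 changed sign in any of the settings run. With the replicate number as a block, which pairs libraries of 1 number, 170 genes were higher, 164 of them among the 183, and 0 were lower. The 1 gene called lower became 80 without the filter on low counts, 3 with DESeq2, 0 with limma-voom, 3 in the 6 beta libraries alone, 0 without both beta control 1 and beta control 3, 27 with a fixed term for date, 75 in the 4 libraries of 2 dates, 6 with GC offsets, 2 on TPM and 0 at an adjusted p under 0.01, and it ranged from 0 to 2 when single libraries were left out. Of 94 called genes that were named by rule, 77 lost no call in any of 30 settings. The cause of these moves was not tested.

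The count of genes whose response differed from that of alpha cells was 0, and became 539 without the filter, 6 with DESeq2 and 1 with a fixed term for date, with a range of 0 to 1375 when single libraries were left out. Against delta cells it was 0, and became 152 without the filter, 4 with DESeq2, 9 with a fixed term for date and 1 on TPM, with a range of 0 to 1 when single libraries were left out. The transcript length test gave 0 in every setting. Depth limits the low genes: with 15 of the 183 at 0 in all controls, the size of their rise is known only as a bound.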

Other observations

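Of the 183 genes called higher in beta cells, 63 were in none of the 40 lists. Ly75, an endocytic receptor known from dendritic cells, had 36.6, 44.9 and 44.8 CPM in IFNγ beta cells, against 6.98, 6.56 and 5.33 CPM in control beta cells, a log2 fold change of 2.74 ± 0.25 (SE), adjusted p = 6.8e-07. Pigr, which carries antibodies across epithelia, had 171, 154 and 181 CPM in IFNγ beta cells, against 34.04, 29.1 and 18.7 CPM in control beta cells, a log2 fold change of 2.62 ± 0.28 (SE), adjusted p = 4.3e-06. Mpeg1, a pore-forming protein known from macrophages, had 19.9, 35.9 and 34.5 CPM in IFNγ beta cells, against 0.142, 0.468 and 0.304 CPM in control beta cells. Of the immune cell list, Ptprc and Cd3e were at 0 in the same libraries, while the macrophage genes C1qa and Cd68 had 2.67, 3.79 and 4.66 CPM and 3.55, 2.49 and 1.63 CPM with IFNγ, against 2.99, 2.93 and 3.19 CPM and 2.99, 1.76 and 1.37 CPM in controls. Lyz2, Itgam, Csf1r, Adgre1, Tyrobp, Fcer1g and C1qb did not pass the filter on low counts. The part of other cells in the Mpeg1 result was not tested. Ly6e, a membrane protein that limits virus entry, had 254, 319 and 315 CPM in IFNγ beta cells, against 72.4, 68.3 and 71.5 CPM in control beta cells, a log2 fold change of 2.06 ± 0.28 (SE), adjusted p = 0.00013, and Pla2g16, a phospholipase, had 30.02, 35.6 and 37.1 CPM in the IFNγ libraries and 8.40, 10.3 and 7.00 CPM in the controls. Apof, an apolipoprotein, had 12.4, 15.3 and 14.4 CPM in the IFNγ libraries and 1.57, 1.29 and 1.52 CPM in the controls. Shisa5 had 109.6, 116 and 98.5 CPM in the IFNγ libraries and 34.04, 33.6 and 24.5 CPM in the controls, a log2 fold change of 1.81 ± 0.23, and Idnk, a gluconate kinase, had 45.3, 43.9 and 44.9 CPM in the IFNγ libraries and 18.4, 14.99 and 10.7 CPM in the controls, a log2 fold change of 1.60 ± 0.23. In each of these 8 genes the 3 IFNγ libraries lay above the 3 controls.

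Several of the 63 lie across a responding gene on the opposite strand. Gm17334 overlaps Irf1 and had 37.1, 38.5 and 63.3 CPM in the IFNγ libraries and 9.83, 9.25 and 14.8 CPM in the controls, and AC119228.1 overlaps Cd274 and had 23.4, 23.1 and 59.9 CPM in the IFNγ libraries and 3.13, 1.52 and 2.74 CPM in the controls. The library preparation kept strand, but the sources used here do not say whether the counting used it, and without that the reads of these transcripts and of the genes they overlap cannot be told apart. Of the 183, 162 are protein coding, 8 are annotated as pseudogenes of 3 kinds, 3 as lincRNAs and 3 as antisense RNAs.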
